A study of Arabidopsis thaliana with 48 samples.

Results

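The root response of the eil3 eil1 double mutant of Arabidopsis thaliana to low sulfate was set against that of the wild type Col-0, locus by locus. For each locus the change from full to low sulfate supply was taken in each genotype, and the Col-0 change was subtracted from the eil3 eil1 change. This difference of 2 log2 changes is called the interaction. It was tested for all 21954 loci that passed a filter on low counts, of 33602 listed, and 840 loci passed. The comparison rests on 12 of the 48 libraries of the study. These are 3 libraries each of Col-0 +S, Col-0 -S, eil3 eil1 +S and eil3 eil1 -S roots, from seedlings 18 days old on agarose plates. The +S medium held 0.75 mM magnesium sulfate, and the -S medium 0.015 mM magnesium sulfate with 0.75 mM magnesium chloride. Low sulfate and added chloride therefore came together in both genotypes and cannot be told apart. The eil1 and eil3 lines are T-DNA insertion lines (SALK_042113 in AT2G27050 and SALK_089129 in AT1G73730), 1 line per gene, and eil3 eil1 is their double mutant per the labels. Root libraries of the eil1 and eil3 single mutants entered the fit through its count filter, its scaling and its shared estimate of spread, but not the contrast itself. They and the shoots serve as separate readouts of the same loci. The labels do not say whether the 3 libraries of a group came from separate cultures, so p-values measure the spread between these libraries.

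EIL3 is also called SLIM1 and belongs to the EIN3 family of transcription factors; it is known as a central regulator of the plant's answer to sulfur deficiency. EIL1, its relative, acts in ethylene signalling. When sulfate runs short, Arabidopsis roots are known to raise sulfate uptake and vacuolar release, to open glutathione and glucosinolates as internal sulfur sources, and to lower the synthesis of glucosinolates, which are sulfur-rich defence compounds. Serine acetyltransferase makes O-acetylserine (OAS), the carbon skeleton of cysteine, and the genes that move with OAS levels are known as the OAS cluster.

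The libraries held 28320436 to 38269946 estimated counts, and libraries of 1 group correlated at 0.987 to 0.990 on the log2 scale. Levels are given as CPM, counts scaled by edgeR to the size of each library, for the 3 libraries of a group in the order of their replicate numbers. The EIL1 transcript separated the genotypes, with 50.7, 50.4 and 53 CPM at +S and 55.4, 51.9 and 60.4 CPM at -S in Col-0 and 18.2, 13.2 and 15.9 CPM at +S and 21.7, 17.4 and 19.4 CPM at -S in eil3 eil1. EIL3 did not separate them, with 23.9, 24.3 and 22.2 CPM at +S and 21.6, 22.9 and 22.3 CPM at -S in Col-0 and 21.5, 19.9 and 23.6 CPM at +S and 22.4, 21 and 20.3 CPM at -S in eil3 eil1. In the single mutants EIL1 was at 51.4 ± 2.25 and 43 ± 5.72 CPM (SD, n = 3) at +S and -S in eil1 roots, which does not set eil1 apart from Col-0 as the double mutant is. EIL3 was at 15.8 ± 2.08 and 14.8 ± 2.6 CPM in eil3 roots. By the labels the double mutant joins the insertions of the single lines, yet EIL1 was low in eil3 eil1 and not in eil1. Mean EIL3 was lower in eil3 than in eil3 eil1. Counts on a whole locus do not show where its reads lie, and the identity of the lines was not tested. The genotypes are therefore given as labelled. Green tissue was measured through 17 photosynthesis genes, none at 0 in all 12 libraries, whose summed level was 1158 to 1402 CPM in Col-0 +S, 956 to 1306 in Col-0 -S, 667 to 914 in eil3 eil1 +S and 973 to 1251 in eil3 eil1 -S. None of the 17 passed the interaction test by edgeR, DESeq2 or limma, 4 had an unadjusted p under 0.05, all positive, and their median interaction was 0.63; its part in the results was not tested. The 8 root genes summed to 9612 to 9860 CPM in Col-0 +S, 6911 to 8478 in Col-0 -S, 7713 to 8842 in eil3 eil1 +S and 9755 to 10667 in eil3 eil1 -S. Most of that sum was PYK10, whose interaction passed by edgeR (adjusted p = 0.0198) and not by limma (adjusted p = 0.122) or without Col-0 -S replicate 3, eil3 eil1 +S replicate 1 or eil3 eil1 -S replicate 3. The median interaction of the 8 was 0.04. In whole roots, fewer cells of a type and less RNA per cell cannot be told apart.

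Of the 840 loci past the test (3.83% of those tested), 506 had a positive interaction (2.30%) and 334 a negative one (1.52%). Their median absolute interaction was 0.78 on the log2 scale, 278 reached 1 and 70 reached 2. Under total-count scaling in place of TMM, edgeR's scaling that allows for library composition, the test gave 394 positive and 427 negative loci, so the share of positive calls was 60.2% with TMM and 48% with total counts. Without eil3 eil1 +S replicate 2 the count was 526 (313 positive and 213 negative), and without Col-0 -S replicate 2 there were 213 negative loci. By itself, low sulfate raised 935 loci in Col-0 roots (4.26%) and lowered 1047 (4.77%). In eil3 eil1 roots it raised 483 (2.2%) and lowered 372 (1.69%). These responses share no library, and 358 loci were called in both, which is 18.1% of the Col-0 calls and 41.9% of the eil3 eil1 calls. Of the 358, 312 moved in 1 direction and 46 in opposite directions. Over the 1982 loci called in Col-0, the eil3 eil1 change was a median 18.7% of the Col-0 change, with quartiles of -10.5% and 47.8%. Since these loci were chosen by their Col-0 change, that share is a description and no test was made of it.

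The loci past the test were divided by the calls of the separate responses. A response was lost where Col-0 was called and eil3 eil1 was not, with an interaction against the Col-0 change, and this held for 457 loci. It was reduced where both were called in 1 direction and eil3 eil1 changed less, which held for 62. It was reversed where both were called in opposite directions (46 loci), stronger where both were called and eil3 eil1 changed more (5 loci), and new where eil3 eil1 alone was called (160 loci). The remaining 110 loci passed the interaction test with neither response called, and no locus fell outside these classes. A lost response is one that did not pass the test in eil3 eil1, which does not show that it was 0: 127 of the 457 lost loci (27.8%) had an eil3 eil1 change of the same sign as in Col-0 and 330 of the opposite sign. With responses called at an unadjusted p under 0.05 instead, 336 loci were lost, 103 reduced and 257 reversed, so the border between lost, reduced and reversed depends on that threshold. At the border of the interaction test, the 98 loci with adjusted p from 0.04 to 0.05 had a median absolute interaction of 0.54 and the 107 loci from 0.05 to 0.06 one of 0.52. Without Col-0 -S replicate 2 the lost class held 295 loci. Loci named below from a class were chosen among those whose Col-0 and eil3 eil1 libraries did not overlap at -S or at +S. Such gaps at these loci follow from that choice and are given as values only.

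**Figure D1:**
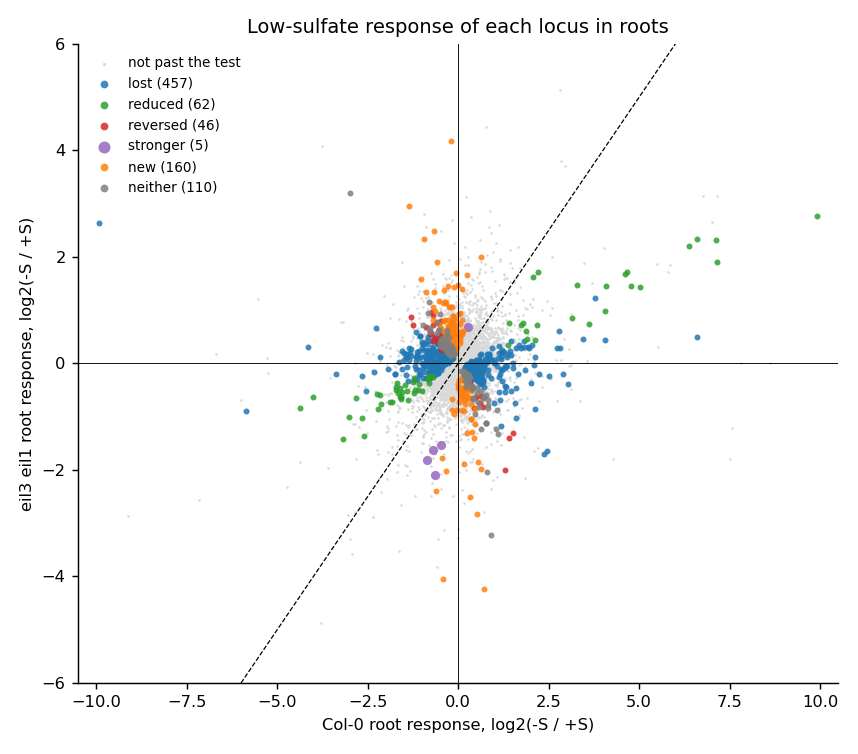
Log2 change from +S to -S in Col-0 roots (x axis) against the change in eil3 eil1 roots (y axis), 1 point per locus tested, coloured by class, with a dashed line where both changes are equal; 5 loci, none past the test, lie outside the axes. Lost loci lie along the horizontal line at 0, reduced loci between it and the dashed line, and reversed loci in the upper left and lower right.

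**Figure D2:**
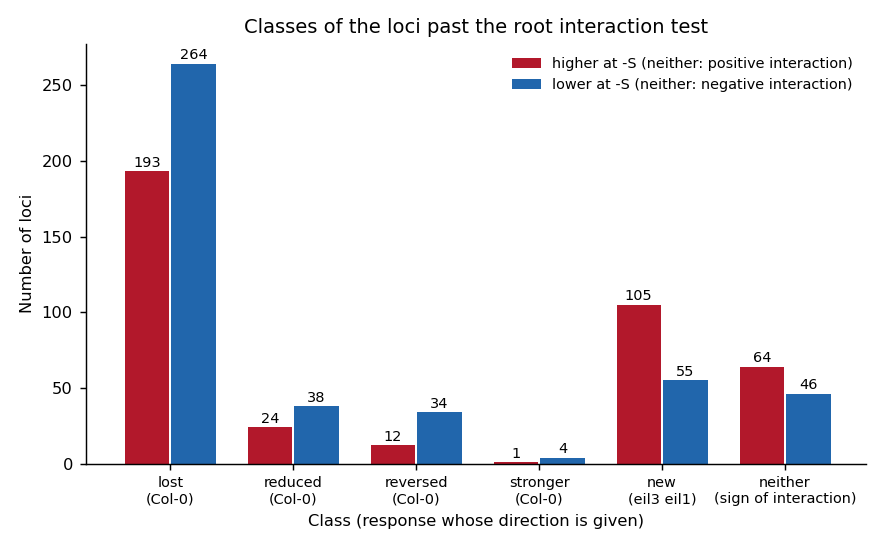
Number of loci past the root interaction test (y axis) in each class (x axis), red for loci higher at -S and blue for loci lower at -S in the response named under each class; for the class called in neither response, red marks a positive and blue a negative interaction. Lost responses are the largest class, with 193 loci raised and 264 lowered in Col-0, and stronger responses the smallest, with 1 and 4.

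The reduced class held 24 loci that rose in Col-0, with a median change of 3.44 in Col-0 and 1.44 in eil3 eil1. The sequence before the start of the leading locus is given with those of 3 other leading loci, as the stretches in which binding motifs were counted. They are BGLU28 (AT2G44460), a beta-glucosidase that can release sulfur from glucosinolates (reduced, chr2:18346056-18346355, plus strand), AT2G32487, an uncharacterized protein (lost, chr2:13791607-13791906, plus strand), BCAT4 (AT3G19710), the first enzyme of methionine chain elongation (reduced, chr3:6849533-6849832, minus strand), and RL3 (AT4G36570), a RAD-like MYB protein (reversed, chr4:17254040-17254339, plus strand). Each runs 5′ to 3′ from 250 bases before to 50 bases after the gene start, from the RefSeq TAIR10.1 assembly, with GAGAC and ATGTA on either strand in capitals.
BGLU28: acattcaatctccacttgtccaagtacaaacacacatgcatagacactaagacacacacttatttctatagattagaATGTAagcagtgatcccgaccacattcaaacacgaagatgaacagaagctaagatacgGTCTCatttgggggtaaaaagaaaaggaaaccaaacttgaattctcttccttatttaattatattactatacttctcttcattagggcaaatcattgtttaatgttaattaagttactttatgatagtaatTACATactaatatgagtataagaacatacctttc
AT2G32487: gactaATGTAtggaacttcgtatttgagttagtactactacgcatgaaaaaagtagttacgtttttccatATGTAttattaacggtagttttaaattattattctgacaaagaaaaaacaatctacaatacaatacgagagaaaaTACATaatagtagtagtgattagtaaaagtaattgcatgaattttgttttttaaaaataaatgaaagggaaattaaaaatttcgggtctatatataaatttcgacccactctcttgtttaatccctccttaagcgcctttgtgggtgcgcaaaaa
BCAT4: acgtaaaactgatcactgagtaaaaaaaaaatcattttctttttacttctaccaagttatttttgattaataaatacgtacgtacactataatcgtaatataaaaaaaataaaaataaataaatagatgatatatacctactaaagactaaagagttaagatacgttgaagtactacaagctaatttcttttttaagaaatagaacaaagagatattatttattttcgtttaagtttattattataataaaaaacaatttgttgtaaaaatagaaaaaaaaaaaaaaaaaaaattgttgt
RL3: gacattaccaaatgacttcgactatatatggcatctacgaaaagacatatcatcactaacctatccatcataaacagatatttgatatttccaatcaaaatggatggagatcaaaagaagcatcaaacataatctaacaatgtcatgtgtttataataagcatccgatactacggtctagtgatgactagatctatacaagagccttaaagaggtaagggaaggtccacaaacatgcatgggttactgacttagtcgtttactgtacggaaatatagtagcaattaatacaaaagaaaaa

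BGLU28 stood at 1.21, 0.605 and 0.692 CPM at +S and 558, 903 and 1047 CPM at -S in Col-0. The eil3 eil1 libraries held 1.46, 1.11 and 2.2 CPM at +S and 11.7, 12 and 9.38 CPM at -S. It was thus induced in both genotypes, by 9.92 ± 0.65 and 2.77 ± 0.60 log2 units (± SE, as for all later changes), and the eil3 eil1 -S libraries stayed under every Col-0 -S library. Its interaction was -7.15 ± 1.03 (edgeR adjusted p = 0.000151). SDI1 (AT5G48850), a repressor of glucosinolate synthesis, stood at 14.3, 10.096 and 11 CPM at +S and 953, 1213 and 1254 CPM at -S in Col-0. Levels in eil3 eil1 were 29.9, 37.2 and 28.3 CPM at +S and 136, 179 and 163 CPM at -S. All 3 eil3 eil1 +S libraries were above all 3 Col-0 +S libraries, by 1.42 ± 0.20 log2 units (edgeR adjusted p = 0.000391), and the interaction was -4.26 ± 0.27 (edgeR adjusted p = 8.28e-10).

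The OAS cluster list had 9 members, all tested. In Col-0 all 9 rose, in eil3 eil1 all 9 rose, and 8 had a negative interaction, each of them in the reduced class. The median interaction of the list was -1.80, against -0.01 over all loci tested. GGCT2;1 (AT5G26220), a gamma-glutamylcyclotransferase of glutathione breakdown, had 4.86, 5.57 and 5.5 CPM at +S and 354, 454 and 516 CPM at -S in Col-0. Its eil3 eil1 levels were 8.61, 8.57 and 8.38 CPM at +S and 33.6, 50.7 and 34.2 CPM at -S. The interaction of -4.17 ± 0.33 (edgeR adjusted p = 4.00e-08) came with eil3 eil1 libraries under those of Col-0 at -S and above them at +S, in both cases with no overlap. The +S difference was 0.69 ± 0.26 (edgeR adjusted p = 0.254). LSU1, one of a family of small proteins named for their response to low sulfur, changed by 4.67 ± 0.15 in Col-0 and 1.71 ± 0.14 in eil3 eil1, and LSU2 by 3.27 ± 0.12 and 1.47 ± 0.12. LSU3, which is outside the list, had an interaction of -2.95 ± 0.21. SHM7 (AT1G36370), a serine hydroxymethyltransferase, rose to 566, 698 and 667 CPM in the Col-0 -S libraries and to 111, 107 and 107 CPM in those of eil3 eil1, with an interaction of -2.29 ± 0.12 (edgeR adjusted p = 8.46e-11). The adenosine phosphosulfate reductases, which reduce activated sulfate, differed less. APR2 had an interaction of -0.65 ± 0.09 and APR3 of -0.48 ± 0.13. APR1, the member that did not pass, had -0.20 ± 0.10 (edgeR adjusted p = 0.366). The calls of APR3 and of SDI2, a relative of SDI1 (-0.45 ± 0.12), were near the threshold and were each lost with 8 of the 12 libraries left out in turn. For both these were Col-0 +S replicates 2 and 3, Col-0 -S replicates 2 and 3, eil3 eil1 +S replicate 2 and eil3 eil1 -S replicates 1 and 3, with Col-0 -S replicate 1 for APR3 and Col-0 +S replicate 1 for SDI2. Both calls were also lost in a fit of the 12 libraries alone, and that of APR3 without eil1 +S replicate 1.

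Sulfate transporters split between the lost and reduced classes. Of 12 tested, 6 had a negative interaction by edgeR and by limma and 7 by DESeq2, which adds SULTR1;3 (edgeR -4.01 ± 1.24, adjusted p = 0.0774). None was positive by these tools (1 at an unadjusted p under 0.05), and the median was -0.90. SULTR1;1 (AT4G08620), a high-affinity uptake transporter of the root surface, had 8.28, 7.42 and 5.26 CPM at +S and 162, 224 and 190.2 CPM at -S in Col-0. Libraries of eil3 eil1 held 6.12, 6.86 and 5.33 CPM at +S and 15.6, 20.8 and 13.7 CPM at -S. Its response was reduced, with a rise in both genotypes and an interaction of -3.31 ± 0.30 (edgeR adjusted p = 2.05e-07). SULTR1;2 (AT1G78000), the other main uptake transporter, had 292, 244 and 198 CPM at +S and 914, 1012 and 875 CPM at -S in Col-0. For eil3 eil1 these were 232, 247 and 217 CPM at +S and 306, 259 and 293 CPM at -S. The Col-0 -S libraries stood above all others and the eil3 eil1 change of 0.30 ± 0.12 did not pass (edgeR adjusted p = 0.21), so its response was lost, with an interaction of -1.63 ± 0.17 (edgeR adjusted p = 2.00e-06). SULTR2;1 (AT5G10180), which loads sulfate into the vascular tissue, had 27.4, 22.7 and 25.5 CPM at +S and 387, 431 and 435 CPM at -S in Col-0. The eil3 eil1 libraries held 122, 121 and 147 CPM at +S and 298, 231 and 239.6 CPM at -S. Here the genotypes were already apart at +S, by 2.37 ± 0.17, with no overlap, and the interaction of -3.07 ± 0.23 joins that higher start to a lower end point at -S. The vacuolar exporter SULTR4;2 had the opposite start, at 36.3, 34.5 and 26.9 CPM in Col-0 +S and 13, 14.3 and 14.8 CPM in eil3 eil1 +S, and its rise was 2.12 ± 0.10 in Col-0 and 0.44 ± 0.10 in eil3 eil1. SULTR4;1 and SULTR2;2 lost their rises of 0.85 ± 0.08 and 1.46 ± 0.13, with interactions of -0.67 ± 0.11 and -1.04 ± 0.19. Part of SULTR2;2, 1038 bases, is 98.5% identical to NOGC1, so its counts can include reads of that gene.

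In the assimilation list 5 of 17 members had a negative and 3 a positive interaction, with a median of 0.10. SERAT3;2 (AT4G35640), a serine acetyltransferase, had 1.4, 1.15 and 0.795 CPM at +S and 32.9, 37.7 and 40.4 CPM at -S in Col-0. Levels in eil3 eil1 were 0.477, 0.381 and 0.562 CPM at +S and 0.799, 1.49 and 1.54 CPM at -S. Its rise remained in eil3 eil1 but at about the level of Col-0 +S, and the interaction was -3.60 ± 0.42 (edgeR adjusted p = 7.57e-06). SERAT3;1 and the ATP sulfurylase ATPS3 lost their rises of 1.38 ± 0.09 and 1.3 ± 0.11, with eil3 eil1 changes of 0.19 ± 0.09 and -0.09 ± 0.11. OASB, an O-acetylserine thiol lyase, had an interaction of -0.36 ± 0.07 and was lost as well. ATPS4, another ATP sulfurylase, moved the other way, with 642, 695 and 681 CPM at +S and 101, 92.2 and 93.7 CPM at -S in Col-0. Its eil3 eil1 levels were 618, 529.8 and 661 CPM at +S and 404, 374 and 379.8 CPM at -S. It fell in both genotypes and by less in eil3 eil1, with an interaction of 2.17 ± 0.13 (edgeR adjusted p = 2.50e-10). ATPS2 and the adenosine phosphosulfate kinase APK2, which feeds sulfate to sulfated compounds, had interactions of 0.50 ± 0.08 and 1.06 ± 0.11. SIR, the sulfite reductase, had -0.14 ± 0.08 and did not pass (edgeR adjusted p = 0.423). The remaining loci of the reduced class with a Col-0 rise were led by AT1G12030, annotated as a DUF506 protein, and BCA3, a beta carbonic anhydrase. AT1G12030 had 41.6, 80.5 and 94.5 CPM in Col-0 -S and 7.85, 11.1 and 8.85 CPM in eil3 eil1 -S, and an interaction of -5.24 ± 0.63. BCA3 had 165, 263 and 293 and 3.82, 2.77 and 3.2 CPM in the same groups and an interaction of -4.80 ± 1.00 (edgeR adjusted p = 0.0063), a call that was lost without eil3 eil1 +S replicate 1 (edgeR adjusted p = 0.0564).

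Among loci whose Col-0 rise was lost, the Col-0 induction was large in several and nearly absent in eil3 eil1. The class held 193 loci that rose in Col-0, with a median change of 0.64 in Col-0 and -0.09 in eil3 eil1. AT1G75280, an NmrA-like family protein, had 54, 52 and 53.1 CPM at +S and 818, 902 and 949.6 CPM at -S in Col-0. For eil3 eil1 these were 43.3, 41.9 and 43.3 CPM at +S and 68.9, 53.8 and 52.4 CPM at -S. The 3 Col-0 -S libraries stood alone, and the interaction was -3.62 ± 0.22 (edgeR adjusted p = 6.11e-10). Its neighbour AT1G75290 had the same order, with 38.4, 40.7 and 42.1 CPM in Col-0 -S, 5.7, 4.73 and 5.57 CPM in eil3 eil1 -S and an interaction of -2.46 ± 0.18. AT2G32487 rose in Col-0 from 0.322, 0.446 and 0.415 to 25.7, 39.4 and 48.6 CPM. In eil3 eil1 it started higher, at 1.94, 1.24 and 1.23 CPM, and ended at 1.6, 2.82 and 1.72 CPM, so that no eil3 eil1 library came near the Col-0 -S libraries (interaction -6.10 ± 0.52, edgeR adjusted p = 1.07e-07).

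Genes of glucosinolate breakdown were among these lost rises. NSP5 (AT5G48180), a nitrile specifier protein that steers the products of glucosinolate hydrolysis, had 84, 61.1 and 69.4 CPM at +S and 473, 431 and 609.7 CPM at -S in Col-0. Libraries of eil3 eil1 held 79.3, 94.4 and 82.8 CPM at +S and 96.2, 114 and 102 CPM at -S. Its Col-0 -S libraries were above all others, with an interaction of -2.53 ± 0.18 (edgeR adjusted p = 5.61e-09). BGLU30 (AT3G60140), a beta-glucosidase also known as DIN2, had 178, 358 and 413 CPM in Col-0 -S and 25.8, 24.1 and 16.4 CPM in eil3 eil1 -S. Its eil3 eil1 change of 1.23 ± 0.40 did not pass (edgeR adjusted p = 0.103), and its interaction was -2.54 ± 0.54. NIT3, a nitrilase, lost a rise of 1.20 ± 0.09, with an interaction of -0.95 ± 0.13. In the breakdown list as a whole 4 of 13 members had a negative and 2 a positive interaction, with a median of -0.31. ICS2 (AT1G18870), an isochorismate synthase, had 77.7, 68.9 and 49.5 CPM in Col-0 -S and 3.02, 5.76 and 7.08 CPM in eil3 eil1 -S, with an interaction of -3.42 ± 0.45. AT3G05400, a major facilitator superfamily transporter, went from 10.6, 10.4 and 6.19 to 71.6, 112 and 116 CPM in Col-0 and from 3.84, 4.83 and 3.83 to 6.53, 4.4 and 6.37 CPM in eil3 eil1. GGCT2;2, a relative of GGCT2;1, changed by 1.07 ± 0.12 in Col-0 and -0.05 ± 0.12 in eil3 eil1. AOC2 (AT3G25770), an allene oxide cyclase of jasmonate synthesis, was 1 of 17 jasmonate genes past the test by edgeR (2 by DESeq2 and 2 by limma, and 4 at an unadjusted p under 0.05), with 21.8, 20.04 and 15.1 CPM in Col-0 -S, 9.0, 6.26 and 8.26 CPM in eil3 eil1 -S and an interaction of -1.08 ± 0.22. SAM4, an S-adenosylmethionine synthetase, rose by 0.70 ± 0.08 in Col-0 and changed by 0.01 ± 0.08 in eil3 eil1.

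**Figure D3:**
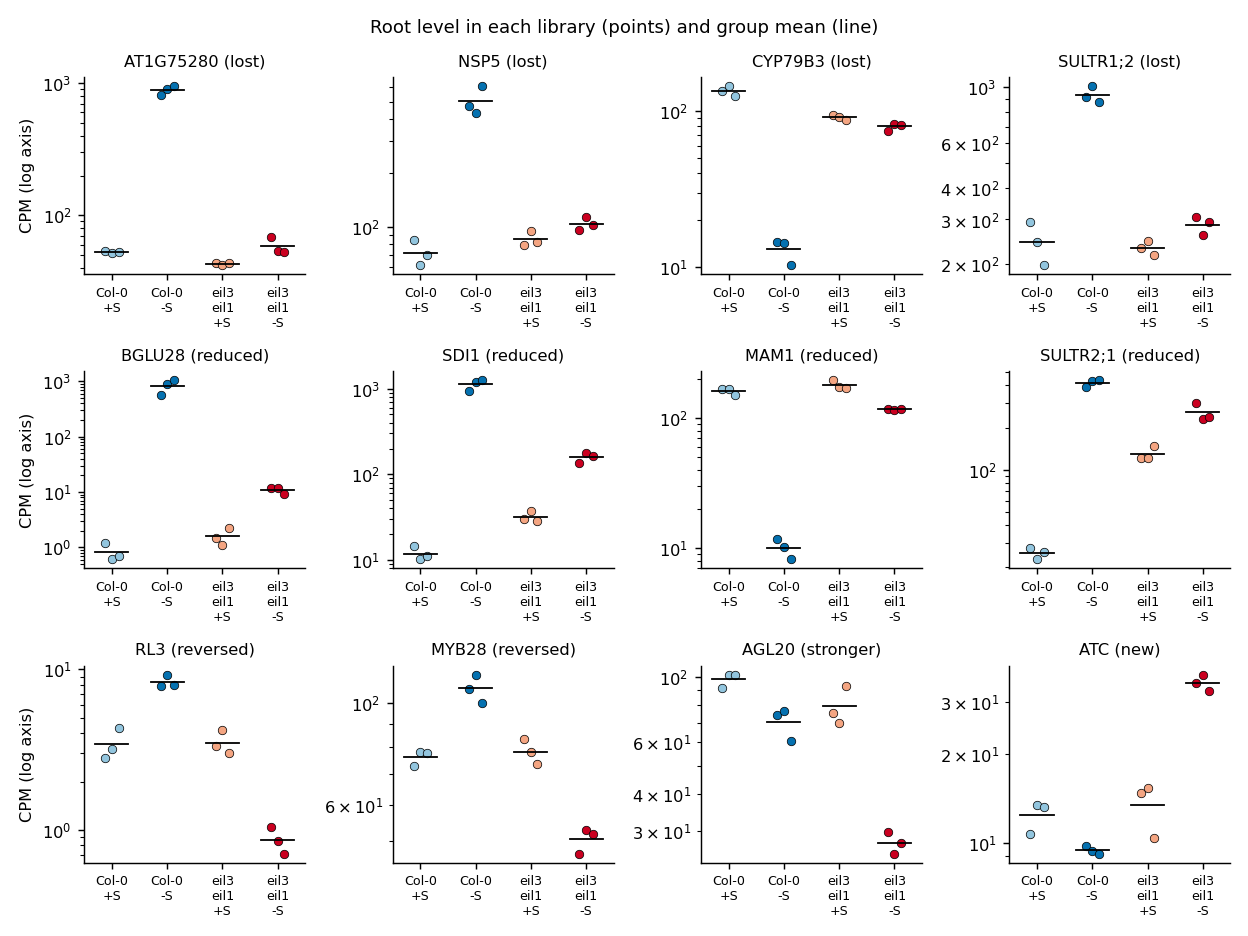
Level in CPM (log axis, with its own range in each panel) of 12 loci in each root library (points) and group mean (line), for Col-0 +S, Col-0 -S, eil3 eil1 +S and eil3 eil1 -S, 3 libraries each, with the class in brackets. The changes of AT1G75280, NSP5, CYP79B3 and SULTR1;2 were called in Col-0 alone. Those of BGLU28, SDI1, MAM1 and SULTR2;1 were called in both genotypes, and those of RL3 and MYB28 in opposite directions.

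Most aliphatic glucosinolate genes were lowered by low sulfate in Col-0. Of 25 aliphatic glucosinolate genes tested, 22 fell in Col-0 and 14 in eil3 eil1. The interaction was positive for 18 and negative for 1, with a median of 1.15, and 14 of the 19 were in the reduced and 5 in the lost class. BCAT4 had 315, 369 and 347 CPM at +S and 15.5, 18.9 and 15.6 CPM at -S in Col-0. The eil3 eil1 libraries held 445, 381 and 357 CPM at +S and 199, 230.3 and 231 CPM at -S. Its +S levels overlapped between the genotypes, and at -S every eil3 eil1 library was above every Col-0 library, with an interaction of 3.53 ± 0.20 (edgeR adjusted p = 2.50e-10). MAM1 (AT5G23010), the methylthioalkylmalate synthase that lengthens methionine chains, had 166, 168 and 151 CPM at +S and 11.8, 10.2 and 8.17 CPM at -S in Col-0. Levels in eil3 eil1 were 194, 171 and 171 CPM at +S and 117, 114 and 117 CPM at -S. Changes of -4.01 ± 0.13 and -0.62 ± 0.11 gave an interaction of 3.39 ± 0.17 (edgeR adjusted p = 5.06e-11). Its relative MAM3 fell by 1.76 in Col-0 while its eil3 eil1 change of -0.19 ± 0.09 did not pass, which put it in the lost class.

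Other steps of the pathway had interactions of varied size. CYP83A1, which oxidizes aliphatic aldoximes, had 1.37 ± 0.13 and CYP79F2, which makes them, 1.57 ± 0.16. CYP79F1, of the same activity, had 0, 0 and 0.0317 CPM in Col-0 -S and 0.313, 0.581 and 0.592 CPM in eil3 eil1 -S, and no fold is given against libraries near 0. The 3-isopropylmalate-like enzymes IPMDH1, IPMI SSU2 and IPMI SSU3 had 1.15 ± 0.12, 1.28 ± 0.17 and 1.12 ± 0.15. IPMI LSU1 and the transporter BAT5 had 0.57 ± 0.09 and 0.69 ± 0.11. The glutathione transferases GSTF11 and GSTU20 had 1.16 ± 0.16 and 1.31 ± 0.11, the glucosyltransferase UGT74C1 1.23 ± 0.15, and the sulfotransferases SOT17 and SOT18 of the last core step 1.00 ± 0.12 and 0.70 ± 0.11. Of the side-chain oxygenases FMO-GSOX1 had 2.43 ± 0.31 and FMO-GSOX3 2.00 ± 0.34. GGP1, a gamma-glutamyl peptidase, was the exception, with a Col-0 rise of 0.35 ± 0.06 that was lost (interaction -0.42 ± 0.08). SUR1, BCAT3, FMO-GSOX2, FMO-GSOX4, FMO-GSOX5 and AOP2 did not pass, with interactions from -0.38 to 0.91. Outside the list, AK3 (AT3G02020), an aspartate kinase on the way to methionine, had 214, 218 and 179 CPM at +S and 34.4, 34.2 and 27.8 CPM at -S in Col-0. Its eil3 eil1 levels were 262, 236 and 215 CPM at +S and 105, 123 and 120.2 CPM at -S. It fell less in eil3 eil1, with an interaction of 1.64 ± 0.14 (edgeR adjusted p = 1.62e-07). HMT3, a homocysteine methyltransferase, had 1.66 ± 0.19, and BT1, a BTB and TAZ domain protein, 1.36 ± 0.22.

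In the indolic branch, which starts from tryptophan, 6 of 14 genes had a positive interaction and none a negative one by edgeR, DESeq2, limma or at an unadjusted p under 0.05, with a median of 0.46. CYP79B3 (AT2G22330), which converts tryptophan to indole-3-acetaldoxime, had 135, 144 and 125 CPM at +S and 14.5, 14.3 and 10.3 CPM at -S in Col-0. For eil3 eil1 these were 94.1, 90.8 and 88.1 CPM at +S and 74.5, 82.4 and 81.7 CPM at -S. The Col-0 -S libraries were the lowest by far. At +S the eil3 eil1 libraries were under all 3 of Col-0, at a difference of -0.57 ± 0.13 (edgeR adjusted p = 0.0326). The eil3 eil1 change of -0.19 ± 0.13 did not pass and the interaction was 3.17 ± 0.19 (edgeR adjusted p = 3.76e-10). CYP79B2 (AT4G39950), of the same activity, fell to 36.7, 38.3 and 28.7 CPM in Col-0 -S and stood at 118, 132 and 136 CPM in eil3 eil1 -S (interaction 2.16 ± 0.15). CYP83B1, the next enzyme, was reduced (0.95 ± 0.11) and the glutathione transferase GSTF9 lost (0.96 ± 0.11). IGMT1, a methyltransferase that modifies indolic glucosinolates, had 0.97 ± 0.26, a call lost with 8 of the 12 libraries left out in turn (all but Col-0 +S replicate 3, Col-0 -S replicate 1, eil3 eil1 +S replicate 3 and eil3 eil1 -S replicate 2). Tryptophan synthesis had 3 of 9 members with a positive interaction, ASA1 (0.65 ± 0.10), TSB1 (0.69 ± 0.12) and TSA1 (0.40 ± 0.07), all 3 in the lost class. Also lost were the Col-0 falls of GSH1, the first enzyme of glutathione synthesis, and of CGS1, cystathionine gamma-synthase. Their interactions were 0.54 ± 0.09 and 0.35 ± 0.09, and that of CGS1 lost its call without Col-0 -S replicate 2 or without eil3 eil1 -S replicate 2. Of 11 glutathione genes 1 was positive and 1 negative, GGCT2;2, with a median of -0.03. Of 17 methionine and S-adenosylmethionine genes 2 were positive and 1 negative, SAM4, with a median of -0.03.

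Over all lost falls, 264 loci, the median change was -0.55 in Col-0 and 0.10 in eil3 eil1. Several of the leading ones outside the glucosinolate lists have known enzymatic roles. MSRB6 (AT4G04840), a methionine sulfoxide reductase, had 4.51, 4.36 and 4.77 CPM at +S and 1.57, 1.3 and 1.49 CPM at -S in Col-0. Libraries of eil3 eil1 held 7.55, 9.3 and 9.75 CPM at +S and 12, 7.95 and 7.28 CPM at -S. It stood higher in eil3 eil1 than in Col-0 under both supplies, and its interaction was 1.67 ± 0.22 (edgeR adjusted p = 5.47e-05). CYP735A2 (AT1G67110), which makes trans-zeatin type cytokinins, had 8.0, 7.68 and 5.7 CPM in Col-0 -S against 31.1, 17.1 and 20.7 CPM in eil3 eil1 -S, and an interaction of 1.77 ± 0.27. The thioredoxin-dependent peroxidase TPX2 had 1.78 ± 0.22, and the Kelch repeat F-box protein AT1G23390 1.57 ± 0.16. AT2G44130, another Kelch repeat protein, was at 4.65, 4.36 and 2.14 CPM in Col-0 +S and at 0 in all 3 Col-0 -S libraries. It stood in eil3 eil1 at 5.36, 0 and 2.89 CPM at +S and 21, 13.3 and 17.4 CPM at -S. No fold is given against libraries listed at 0, and the locus overlaps AT2G44140, by 1445 bases. The labels give a stranded library kit and no strand setting for the counting, so reads of overlapping genes may be shared. Of the loci above, AK3 overlaps another gene by 2537 bases, APR2 by 782, SDI2 by 431, TPX2 by 359, BCAT4 by 307, BCA3 by 273, SERAT3;2 by 144 and ATPS4 by 74.

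**Figure D4:**
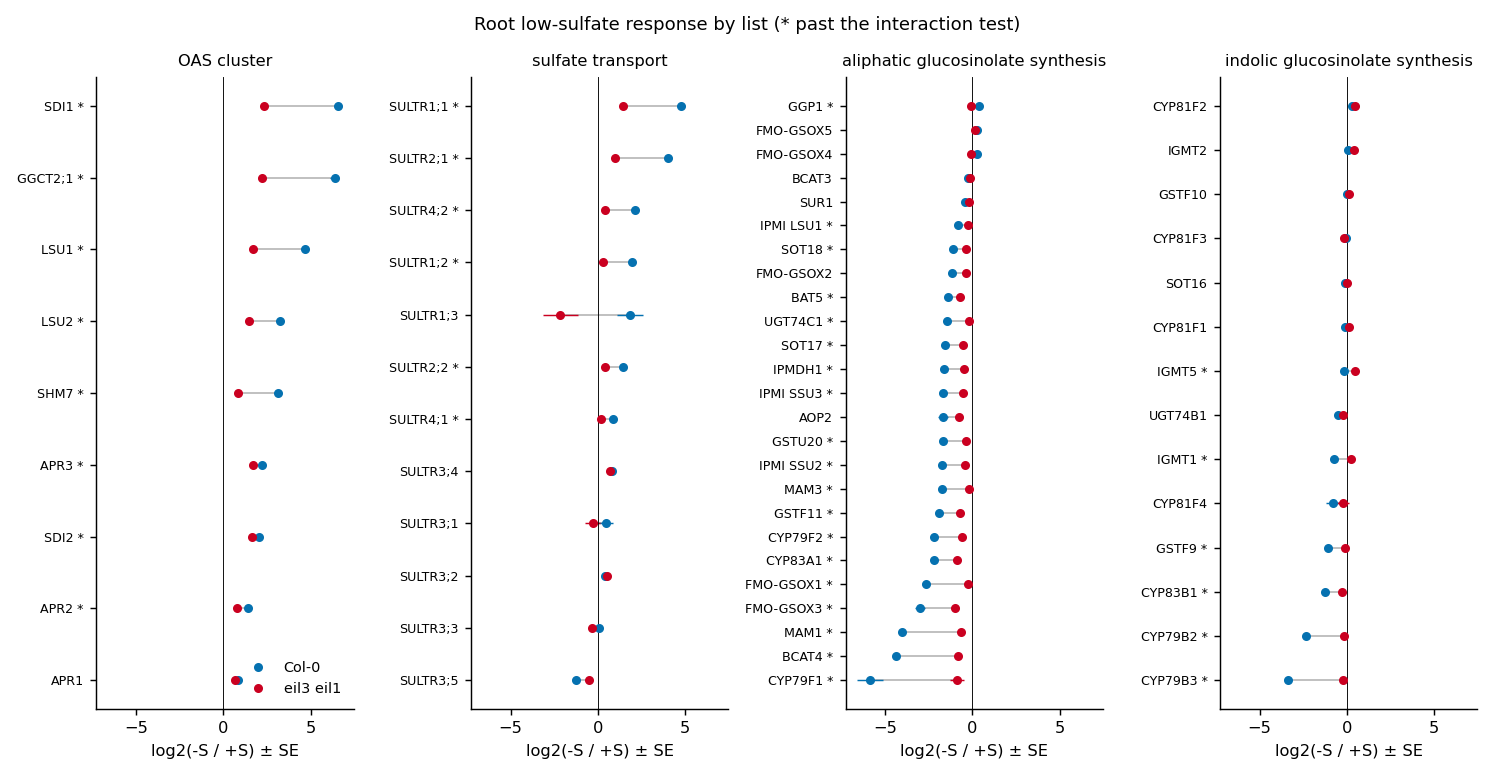
Log2 change from +S to -S (x axis, with SE) of each tested gene in 4 lists (OAS cluster, sulfate transporters, and synthesis of aliphatic and of indolic glucosinolates), blue for Col-0 and red for eil3 eil1, ordered by the Col-0 change; an asterisk marks loci past the interaction test. In every row with an asterisk except GGP1, IGMT1 and IGMT5 the red point lies between 0 and the blue point; in these it lies on the other side of 0.

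Responses of opposite direction, called in each genotype, were found at 46 loci, 12 that rose and 34 that fell in Col-0. Their median changes were 0.55 in Col-0 and -0.68 in eil3 eil1 for the former, and -0.49 and 0.49 for the latter. RL3 had the largest of these interactions. It had 2.82, 3.18 and 4.32 CPM at +S and 7.83, 9.27 and 8.01 CPM at -S in Col-0. The eil3 eil1 libraries held 3.31, 4.16 and 3.0 CPM at +S and 1.04, 0.858 and 0.711 CPM at -S. At +S the genotypes overlapped, and at -S every Col-0 library was above every eil3 eil1 library (interaction -3.29 ± 0.32, edgeR adjusted p = 8.47e-07). MYB28 (AT5G61420), the main activator of aliphatic glucosinolate genes, had 72.9, 78.2 and 77.9 CPM at +S and 107, 115 and 100.1 CPM at -S in Col-0. Levels in eil3 eil1 were 83.3, 78.1 and 73.5 CPM at +S and 47, 52.8 and 51.8 CPM at -S. It rose by 0.49 ± 0.10 in Col-0 and fell by 0.63 in eil3 eil1, with an interaction of -1.12 ± 0.15 (edgeR adjusted p = 4.29e-05). In Col-0 MYB28 thus rose where BCAT4 and MAM1 fell, and in eil3 eil1 it fell together with them. MYB34, which activates indolic genes, changed by -0.94 ± 0.07 in Col-0 and -0.17 ± 0.07 in eil3 eil1 (interaction 0.78 ± 0.10).

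Most of the other named reversals fell in Col-0 and rose in eil3 eil1. AT1G78460, a SOUL heme-binding protein, had 5.43, 6.02 and 5.05 CPM at +S and 2.49, 1.98 and 2.5 CPM at -S in Col-0. Its eil3 eil1 levels were 2.86, 3.4 and 4.15 CPM at +S and 5.91, 5.7 and 5.48 CPM at -S. The eil3 eil1 -S libraries were about where Col-0 +S stood, and the interaction was 1.95 ± 0.23 (edgeR adjusted p = 1.09e-05). LCR69 (AT2G02100), a small cysteine-rich protein of the defensin kind, had 209, 311 and 290.4 CPM at +S and 190.4, 161 and 198 CPM at -S in Col-0. For eil3 eil1 these were 284, 287 and 291 CPM at +S and 481, 490.4 and 489.8 CPM at -S. The 3 eil3 eil1 -S libraries were above all others, with an interaction of 1.32 ± 0.16 (edgeR adjusted p = 1.61e-05). KTI1, a Kunitz trypsin inhibitor, changed by -0.75 ± 0.14 and 0.56 ± 0.14, the metacaspase MC3 by -0.79 ± 0.14 and 0.55 ± 0.14, and the MATE efflux protein ZF14 by -0.73 ± 0.20 and 0.96 ± 0.19. AT3G10080, a cupin, and AT1G78830, a lectin, had interactions of 1.61 ± 0.19 and 1.58 ± 0.18. GLYI7, a glyoxalase I family protein, had 1.42 ± 0.28. AT5G36130, a cytochrome P450, rose in Col-0 and fell in eil3 eil1, by 0.70 ± 0.21 and -0.83 ± 0.21. The interactions of all 11 named reversals passed with any 1 of the 12 libraries left out. The class itself was smaller without some of them: 30 loci without Col-0 +S replicate 2, 29 without Col-0 -S replicate 2, 23 and 17 without eil3 eil1 +S replicates 1 and 2, and 20 and 23 without eil3 eil1 -S replicates 1 and 3.

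A larger change in eil3 eil1 than in Col-0, in 1 direction, was called at 5 loci. AGL20 (AT2G45660), the MADS-box flowering regulator also known as SOC1, had 91.4, 102 and 102 CPM at +S and 74, 76.8 and 60.8 CPM at -S in Col-0. Libraries of eil3 eil1 held 75.6, 69.6 and 93.2 CPM at +S and 29.8, 25.1 and 27.4 CPM at -S. It fell in both, and the eil3 eil1 -S libraries were under every other library (interaction -1.06 ± 0.17, edgeR adjusted p = 0.000609). CLE4 (AT2G31081), a signalling peptide gene, changed by -0.63 ± 0.19 in Col-0 and -2.09 ± 0.20 in eil3 eil1 (interaction -1.46 ± 0.27). AT3G29410, a terpenoid cyclase family protein, and AT1G73602 had -0.97 ± 0.23 and -0.94 ± 0.25, and AT1G25530, an amino acid transporter, 0.42 ± 0.12. The call of AT3G29410 was lost with 4 of the 12 libraries left out in turn (Col-0 +S replicate 2, Col-0 -S replicate 3 and eil3 eil1 -S replicates 1 and 3). That of AT1G73602 was lost with 7 (Col-0 +S replicates 1 and 3, Col-0 -S replicates 1 and 2, eil3 eil1 +S replicates 1 and 2 and eil3 eil1 -S replicate 1), and that of AT1G25530 with all but Col-0 +S replicate 1 and Col-0 -S replicate 3. The call of AT1G25530 was also lost with total-count scaling, in a fit of the 12 libraries alone and without eil1 +S replicate 1. The class held 2 loci without Col-0 +S replicate 1 or eil3 eil1 -S replicate 1, 1 locus without Col-0 +S replicate 3 or Col-0 -S replicate 3, and 3 without Col-0 +S replicate 2, Col-0 -S replicates 1 and 2, eil3 eil1 +S replicates 1 and 2 and eil3 eil1 -S replicate 3.

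New responses, called in eil3 eil1 alone, were found at 160 loci, 105 raised and 55 lowered in eil3 eil1. The raised ones had medians of 0.62 in eil3 eil1 and -0.17 in Col-0, and the lowered ones -0.66 and 0.17. ATC (AT2G27550), a relative of the flowering repressor TERMINAL FLOWER 1, had 10.7, 13.4 and 13.2 CPM at +S and 9.72, 9.37 and 9.18 CPM at -S in Col-0. The eil3 eil1 libraries held 14.7, 15.4 and 10.4 CPM at +S and 34.8, 37.2 and 32.7 CPM at -S. Its eil3 eil1 -S libraries were above all others, and the interaction was 1.77 ± 0.22 (edgeR adjusted p = 1.79e-05). AAP3 (AT1G77380), an amino acid permease, had 12.7, 12.9 and 15.5 CPM at +S and 13.8, 12.6 and 14.2 CPM at -S in Col-0. Levels in eil3 eil1 were 15.4, 16.4 and 16.1 CPM at +S and 67.2, 30.6 and 36.1 CPM at -S. Col-0 did not change past the test (-0.02 ± 0.20), and the interaction was 1.49 ± 0.28 (edgeR adjusted p = 0.00235). MLS, the malate synthase of the glyoxylate cycle, rose in eil3 eil1 by 1.14 ± 0.15, RTFL7, a small ROTUNDIFOLIA-like peptide gene, by 1.90 ± 0.34, and ATL8, a RING-type protein, by 1.46 ± 0.26. PIP2;5, an aquaporin, rose by 0.66 ± 0.12 and was 1 of 21 aquaporins past the test by edgeR (3 by DESeq2).

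Among the new falls, AT1G73600, an S-adenosylmethionine-dependent methyltransferase, had 39.2, 50.00 and 40.9 CPM at +S and 30.1, 40.4 and 24.5 CPM at -S in Col-0. For eil3 eil1 these were 37.1, 33.8 and 32.1 CPM at +S and 7.65, 10.49 and 11.8 CPM at -S. The eil3 eil1 -S libraries were the lowest, with an interaction of -1.32 ± 0.26 (edgeR adjusted p = 0.00314). TPPI, a trehalose-6-phosphate phosphatase, changed by 0.16 ± 0.09 in Col-0 and -0.69 ± 0.09 in eil3 eil1, and the transcription factor WRKY54 by 0.10 ± 0.13 and -0.88 ± 0.13. APK1, an adenosine phosphosulfate kinase, fell by 0.29 in eil3 eil1 (interaction -0.42 ± 0.09). NRT2.4 (AT5G60770), a high-affinity nitrate transporter, had 10.2, 7.87 and 8.51 CPM at +S and 7.05, 7.58 and 6.59 CPM at -S in Col-0. Its eil3 eil1 levels were 2.72, 4.16 and 3.99 CPM at +S and 0.487, 1.22 and 0.918 CPM at -S. It was lower in eil3 eil1 already at +S, and its interaction of -1.69 ± 0.43 (edgeR adjusted p = 0.0276) was lost with 7 of the 12 libraries left out in turn, 2 of Col-0 +S (replicates 2 and 3), 1 of Col-0 -S (replicate 2), 2 of eil3 eil1 +S (replicates 2 and 3) and 2 of eil3 eil1 -S (replicates 1 and 3). AT4G01390, a TRAF-like protein, had 11.7, 14 and 8.25 CPM in eil3 eil1 +S and 0.799, 2.88 and 4.77 CPM in eil3 eil1 -S, and its interaction of -2.61 ± 0.67 was lost likewise with 7 of the 12 (Col-0 +S replicates 2 and 3, Col-0 -S replicate 2, eil3 eil1 +S replicates 1 and 2 and eil3 eil1 -S replicates 1 and 2). Without eil3 eil1 +S replicate 2 or eil3 eil1 -S replicate 1 the new class held 75 and 77 loci.

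Of the 110 loci called in neither response, 64 had a positive and 46 a negative interaction, and the named ones were less stable than those of any other class. All 13 named ones lost the interaction call with at least 1 library left out, and the class held 47 loci without Col-0 +S replicate 2, 59 without Col-0 -S replicate 2, 72 and 44 without eil3 eil1 +S replicates 1 and 2 and 60 without eil3 eil1 -S replicate 3. PYK10 (AT3G09260), a beta-glucosidase that is among the most abundant root transcripts, had 8671, 9037 and 9079.9 CPM at +S and 7746, 7813 and 6262 CPM at -S in Col-0. Libraries of eil3 eil1 held 6908, 8098 and 7993 CPM at +S and 9827, 9026 and 9917 CPM at -S. Its opposite small shifts gave an interaction of 0.62 ± 0.15 (edgeR adjusted p = 0.0198), lost without Col-0 -S replicate 3, eil3 eil1 +S replicate 1 or eil3 eil1 -S replicate 3. AT1G19530 had the values 32.8, 27.9 and 37.2 CPM in Col-0 -S and 114, 83.6 and 96.4 CPM in eil3 eil1 -S and an interaction of 1.43 ± 0.37, lost with 7 of the 12 libraries left out (Col-0 +S replicates 2 and 3, Col-0 -S replicates 1 and 2, eil3 eil1 +S replicate 2 and eil3 eil1 -S replicates 1 and 3). Its call was also lost in a fit of the 12 libraries alone.

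The lists for other nutrients and for root structure gave few interaction calls. Of 22 iron genes none passed by edgeR, DESeq2 or limma, 3 had an unadjusted p under 0.05, and their median interaction was -0.01. Of 14 phosphate genes 1 was positive, PHO1;H1 (0.83 ± 0.18), and of 12 nitrate genes 1 was negative, NRT2.4. In the ethylene list, the pathway in which EIL1 is known, EDF4, an ethylene response factor of the RAV type, was positive (0.80 ± 0.20). Its call was lost without Col-0 +S replicate 2 or 3, Col-0 -S replicate 2, eil3 eil1 +S replicate 2 or eil3 eil1 -S replicate 3. Of 9 anion transport genes, which bear on the added chloride, NPF2.4 was positive (1.06 ± 0.25) and CLC-B negative (-0.50 ± 0.13); both calls were lost without Col-0 -S replicate 2, eil3 eil1 +S replicate 2 or eil3 eil1 -S replicate 3. The call of CLC-B was also lost without Col-0 +S replicate 2 or 3, Col-0 -S replicate 1, eil3 eil1 +S replicate 1 or eil3 eil1 -S replicate 1. Of 16 suberin and Casparian strip genes CASP5 was positive and FAR4 negative. Without Col-0 +S replicate 1, Col-0 -S replicate 2, eil3 eil1 +S replicate 2 or eil3 eil1 -S replicate 3 neither passed. CASP5 was also lost without Col-0 -S replicate 1 or eil3 eil1 +S replicate 3, and FAR4 without Col-0 +S replicate 3, Col-0 -S replicate 3, eil3 eil1 +S replicate 1 or eil3 eil1 -S replicate 2. FAR4 also did not pass with a replicate block, in a fit of the 12 libraries alone or without eil1 +S replicate 1. Of 6 flavonoid genes none passed by edgeR, DESeq2 or limma, and 1 had an unadjusted p under 0.05. Beside these counts, 2.30% and 1.52% of all loci were called positive and negative.

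The levels from which the responses started differed at few of all loci tested, and at 49 of the 840 past the interaction test. At +S, 193 loci (0.879%) differed between eil3 eil1 and Col-0 roots. Of the classed loci, 23 of the 457 lost, 13 of the 62 reduced, 4 of the 46 reversed, 0 of the 5 stronger, 5 of the 160 new and 4 of the 110 others were among them. At +S the libraries of the genotypes did not overlap for 281 of the 840 loci past the test and for 3722 of all 21954. The +S libraries also enter the interaction, so these counts are given as values only. At -S the libraries of the genotypes did not overlap for 431 of the 457 lost, 61 of the 62 reduced, all 46 reversed and 156 of the 160 new loci, and for 6482 of all 21954 loci tested; the classes were chosen with these libraries.

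In the single mutants, whose own responses did not enter the classes, many loci with reduced or lost responses were called. In eil1 roots 239 loci rose (1.09%) and 183 fell (0.834%), and in eil3 roots 103 rose (0.469%) and 130 fell (0.592%). Of the 24 reduced loci that rose in Col-0, all 24 rose in eil1 and 22 in eil3, with median changes of 2.45 and 1.72. Of the 38 reduced loci that fell, 35 fell in eil1 and 33 in eil3. Of the 193 lost rises, 78 (40.4%) rose in eil1 and 17 (8.81%) in eil3, and of the 264 lost falls 56 (21.2%) fell in eil1 and 25 (9.47%) in eil3. Reduced and lost loci were chosen by a call in Col-0 under the same treatment. The share among all loci called in Col-0 was not taken, so these counts are values only. At an unadjusted p under 0.05, 134 of the lost rises rose in eil1 and 71 in eil3, while 0 and 6 fell. Of the lost falls, 146 fell in eil1 and 73 in eil3 at that threshold, while 0 and 5 rose. The photosynthesis genes summed to 2944 CPM in eil1 +S replicate 1, above the other eil1 root libraries. Without that library 136 loci rose and 102 fell in eil1, among them 62 of the lost rises, 34 of the lost falls, all 24 reduced rises and 35 of the 38 reduced falls. Whether eil1 and eil3 differ here was not tested, and both lines are as labelled, with the EIL1 and EIL3 levels given above. AT1G75280 went from 46.2 ± 6.76 to 356 ± 108 CPM (SD, n = 3) in eil1 and from 42.3 ± 5.03 to 58.4 ± 3.34 CPM in eil3. BGLU28 reached 161 ± 129 CPM in eil1 -S and 15 ± 1.69 CPM in eil3 -S. CYP79B3 fell in both, to 38.5 ± 10.2 and 47.2 ± 4.32 CPM. Of the 105 new rises none was called in eil1 by edgeR (8 rose and 6 fell at an unadjusted p under 0.05), and 3 (2.86%) rose and 1 fell in eil3 (15 and 4 at an unadjusted p under 0.05). Of the 55 new falls 2 rose and none fell in eil1 (8 and 2 at an unadjusted p under 0.05), and 2 (3.64%) fell in eil3 (1 rose and 13 fell at an unadjusted p under 0.05). Over all loci tested, 1262 rose and 1279 fell in eil1 and 1137 rose and 1031 fell in eil3 at an unadjusted p under 0.05. ATC was at 12.6 ± 2.68 and 18.2 ± 2.75 CPM in the -S roots of eil1 and eil3. Of the 34 reversed loci that fell in Col-0, 4 fell and 1 rose in eil1, and 1 fell in eil3. At an unadjusted p under 0.05, 18 fell and 1 rose in eil1, and 5 fell and 1 rose in eil3. MYB28 changed by 0.21 ± 0.10 in eil1 and -0.52 ± 0.10 in eil3 (edgeR adjusted p = 0.455 and 0.0107), and AGL20 by -0.15 ± 0.12 and -0.96 ± 0.12.

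The same contrast in shoots, from libraries of other tissue, was positive for 4336 of 21697 loci (20%) and negative for 3673 (16.9%), so a call there is common. Of the 24 reduced loci that rose in Col-0 roots, 19 were negative and none positive in shoots by edgeR (20 and none at an unadjusted p under 0.05), with a median of -2.49. For the 38 reduced falls, 20 were positive and 3 negative. Of the 186 lost rises tested in shoots, 94 (50.5%) were negative and 7 positive, but of the 258 lost falls 61 (23.6%) were positive and 37 (14.3%) negative, near the shares of all loci. The 49 new falls tested in shoots had 24 negative and 1 positive, and the 101 new rises 20 positive and 28 negative. The OAS cluster, for example, was negative in shoots for 7 of the 8 members called in roots. SULTR2;1 was at 0.05 ± 0.20 in shoots (edgeR adjusted p = 0.862) against -3.07 ± 0.23 in roots, while NSP5 was at -3.41 ± 0.29 and BCAT4 at 3.15 ± 0.41.

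**Figure D5:**
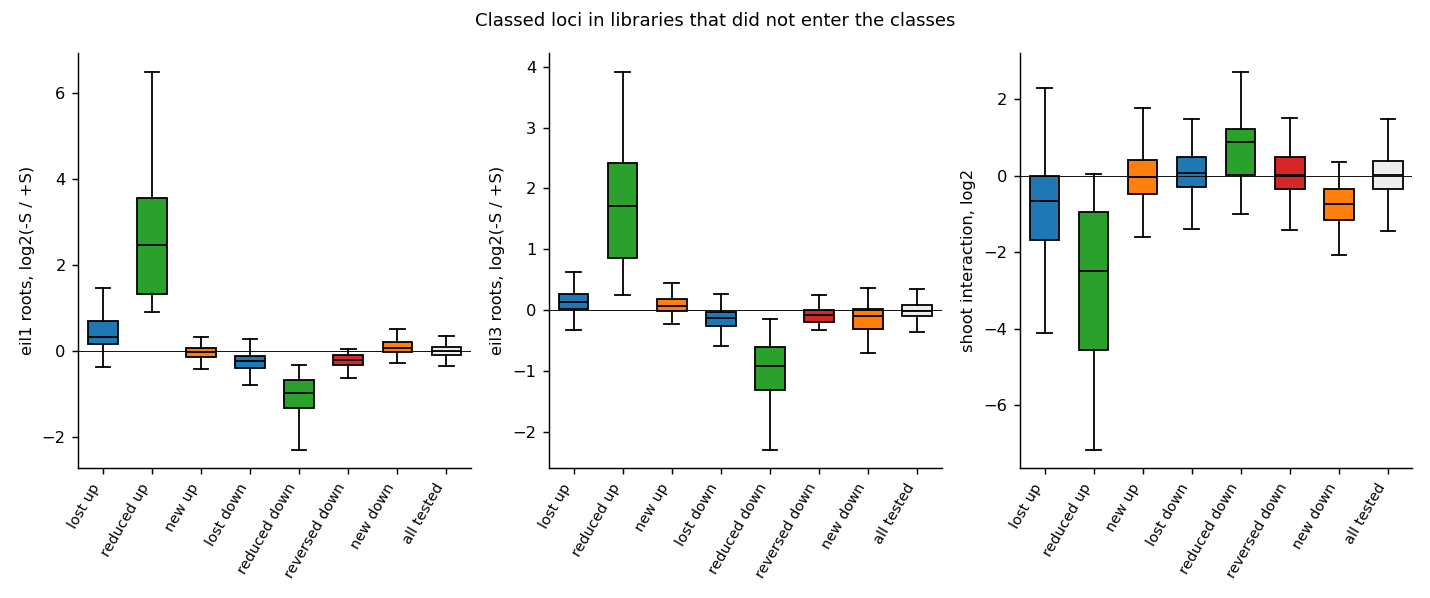
Log2 change from +S to -S in eil1 roots (left) and eil3 roots (middle), and the shoot interaction of eil3 eil1 against Col-0 (right), for loci of each root class and all loci tested; boxes show quartiles, lines medians, whiskers values within 1.5 times the box height, and values beyond are not drawn. The reduced loci raised in Col-0 have the median farthest from 0 in every panel, at 2.45, 1.72 and -2.49.

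The letters of the promoters were counted in the window used above, on both strands. GAGAC, the core of the sulfur-responsive element known as SURE, was in 32.5% of the promoters of all loci tested. ATGTA, the core of sites bound by EIN3-like factors, was in 56.2%, and the longer ATGTANCT, which contains ATGTA, in 4.07%. In the 24 reduced rises these were in 9, 18 and 4 promoters (37.5%, 75% and 16.7%). In the 192 lost rises with a promoter they were in 33.9%, 56.2% and 2.60%, and in the 262 lost falls in 34.4%, 56.9% and 2.29%. In the 38 reduced falls they were in 18.4%, 55.3% and 2.63%. The 105 new rises had 32.4%, 58.1% and 5.71%, and the 34 reversed falls 14.7%, 47.1% and 0%. In the sequences printed, BGLU28 had 1 GAGAC and 2 ATGTA, AT2G32487 3 ATGTA, and BCAT4 and RL3 neither. A match describes letters only, and a window without one says nothing of the factors.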

How the data were processed

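Shoots and roots were sequenced in 48 libraries, of which the 24 root libraries entered the fit. Per the submitters' processing notes, the tools were Trimmomatic 0.36, FastQC and kallisto 0.43.1 with TAIR10, and the authors deposited estimated counts for 33602 targets, 1 per locus, in each library. Target lengths are the other deposited value used, per the file headers, and only for description. The estimated counts were rounded (7.80% were not whole), filtered with filterByExpr, scaled by TMM and tested with edgeR 4.0.16 (R 4.3.3), a quasi-likelihood F test over 8 groups with Benjamini-Hochberg adjustment over 21954 loci and a threshold of 0.05. The biological coefficient of variation was 0.101. Levels are TMM-scaled counts, set to library size (CPM, as edgeR gives them). Responses and interactions are log2 differences ± SE, where the SE is the difference divided by the root of F and is approximate. The count filter looks at all groups, so a locus can pass through the group where it is high.

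The members and gene lists were chosen with earlier results of these data known. Named are the regulators, all members of 5 sulfur and glucosinolate lists, up to 4 members with the smallest p of each other list, and the largest interactions of each class among loci of at least 5 CPM in 1 group. Not every locus that this rule names is reported here. Gene names, roles and promoters come from RefSeq TAIR10.1, which matched 97.7% of targets. The promoters were read from that genome by gene start, in place of a promoter table. Alternatives used DESeq2 1.42.0, limma 3.58.1, other scalings, filters and thresholds, a replicate block and each library left out. The root columns carry replicate numbers, and 2 of 18 same-numbered pairs correlated above 0.1. No 2 libraries held identical values. Sequence copies were searched with BLAST+ 2.17.0. The edgeR script was tested on simulated data.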

Additional observations from a re-analysis of the deposited data

Results flagged for a closer look

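The responses of the genotypes differed at 840 loci by the interaction test itself, and the loci with opposite or larger responses in eil3 eil1 are repeated here as values. Opposite responses had interactions of -3.29 for RL3, 1.95 for AT1G78460, 1.69 for ZF14, 1.61 for AT3G10080, 1.58 for AT1G78830, -1.53 for AT5G36130, 1.42 for GLYI7, 1.34 for MC3, 1.32 for LCR69 and 1.31 for KTI1. Larger responses in eil3 eil1 had interactions of -1.46 for CLE4, -1.06 for AGL20, -0.97 for AT3G29410, -0.94 for AT1G73602 and 0.42 for AT1G25530. No test for single outlying libraries was made within the groups of 3.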

How the results depend on the processing

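None of the 138 named loci past the test changed sign, while SULTR3;2, SULTR3;4, CYP81F3, EIL3, ATPS1 and F3H, which did not pass, crossed 0 with 1 library left out, and the split of calls turned with total-count scaling, from 506 positive and 334 negative to 394 and 427. The cause of the changes below was not tested. Of the 840 loci, 828 were still called with RLE size factors, 839 with DESeq2, 823 with limma, 726 with total-count scaling, 775 with no count filter, 709 with the 12 libraries alone and 524 to 728 with 1 of these 12 left out. DESeq2 called 1212 loci, with 70 reversed, 245 new and 179 in neither response. With the 12 libraries alone 3 loci were stronger. At an adjusted p under 0.01 there were 386 loci (228 positive, 158 negative), in the classes lost 231, reduced 41, reversed 11, stronger 0, new 62 and neither 41. At 0.1 there were 1384 (818 positive, 566 negative), with lost 755, reversed 83, new 270 and neither 187. With an absolute interaction of at least 1 there were 278 (139 positive, 139 negative), with lost 125, reduced 41, reversed 23, stronger 2, new 53 and neither 34. With responses called at an unadjusted p, 103 were reduced, 257 reversed and 0 in neither. With 1 of the 12 libraries left out the count ran from 526 to 934, positive from 313 to 542, negative from 213 to 392, lost from 295 to 520, reduced from 42 to 62, reversed from 17 to 56, stronger from 1 to 7, new from 75 to 175 and neither from 44 to 135. The deviations of same-numbered libraries correlated weakly (r from -0.138 to 0.110). With 3 libraries per group, these values cannot show whether the numbers pair the libraries. A fit with a replicate block called 927 loci, with 540 positive and 387 negative. Of the 138 named loci past the test, 105 passed with any 1 of the 12 libraries left out. Leaving out eil1 +S root replicate 1, chosen after seeing the data for its photosynthesis genes, gave 836 loci, and in eil1 roots 136 rises and 102 falls against 239 and 183.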
